A study of Mus musculus with 24 samples.

Results

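The comparison described here set RNA levels in mouse fibroblasts 360 min after spermidine against those 240 min after it. It rests on the 3 arrays labelled 360 min and the 3 labelled 240 min, 6 of the 24 arrays of a time course with 8 time points. All of these cells were NIH3T3, an immortalised mouse embryonic fibroblast line. Before spermidine they spent 96 h in 1 mM difluoromethylornithine (DFMO), an inhibitor of the ornithine decarboxylase that makes putrescine, the precursor of spermidine. Spermidine was then given at 10 µM with 1 mM aminoguanidine, an inhibitor of the amine oxidases in serum. The 240 and 360 min cells thus share the DFMO, the spermidine and the aminoguanidine and differ in the labels only in the 120 min between harvests. No array is labelled as DFMO alone for these times, so time in culture and time after spermidine cannot be told apart. Labelling started from 200 ng of total RNA for each array, and the labels call the 3 arrays of a time biological replicates.

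Polyamines are small cations that bind RNA and DNA, and dividing cells need them. Cells that lack them tend to stop before DNA replication, and the submitters describe their cells as growth arrested at the time of spermidine addition. On the way from G1 into S phase, the E2F transcription factors raise a set of genes that licence replication origins, build the replication fork and supply deoxynucleotides. Later in the cycle another set serves chromosome segregation and mitosis. Growing cells also make membrane lipids, and the enzymes of cholesterol and fatty acid synthesis are controlled largely by the SREBP transcription factors. In a whole culture, more cells expressing a gene and more RNA of it per cell cannot be told apart.

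Replicate 3 of 240 min stood apart from the other arrays of its time. On the line from the mean of replicates 1 and 2 of 120 min to the mean of 360 min, taken over all genes, it lay at 3.12% of the way, against 53.4% and 50.9% for replicates 1 and 2 of 240 min. Replicate 3 of 120 min lay at 57.7% of that way. Whether the labels of these 2 arrays were exchanged was not tested and would change what each 240 min value means; the labels were used as given. Changes and calls of named genes are given with all arrays and, where a call is lost or a change moves by over 1.5 times, without replicate 3 of 240 min. Leaving out an array because it stands apart also narrows the spread of its group. The median level of 14 fibroblast markers was between 8.78 and 9.50 on the log2 scale in the 6 arrays. Those of the macrophage, epithelial, endothelial, adipocyte and skeletal muscle lists lay between 3.83 and 4.13, below the median gene at 4.34 to 4.37. Exceptions were Lyz2 and Krt14, with means of 7.40 and 7.71 over the 24 arrays. Of the 51 genes in these 5 lists 0 passed in limma and 3 had an unadjusted p under 0.05.

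Of 19938 genes tested, 1207 changed from 240 to 360 min at a limma adjusted p under 0.05, or 6.05%: 848 rose and 359 fell. The shares of 4.25% and 1.8% are the background for every count of a gene group below. A replicate effect was taken out of the values before deposit. The fit above does not allow for this removal, so its SE and p-values are too small. A fit with the replicate number as a block, which allows for it, called 776 genes, 576 up (2.89%) and 200 down (1%). Without replicate 3 of 240 min, 220 genes rose and 60 fell, 1.1% and 0.301%, and 105 genes passed with the block as well. Of the 280 genes called then, 274 were also called with all arrays, and 933 genes were called only with all arrays. No gene called in both ways had opposite signs. With replicate 3 of 120 min left out as well, 455 genes rose and 148 fell. Every list below then had the same median change as without replicate 3 of 240 min alone. A call lost in that version can thus return with the change unaltered. The rises were larger than the falls: 30 genes rose by at least 1 log2 unit, a doubling, and 2 fell by as much. With replicate 3 left out these were 9 and 0. The median rise among called genes was 0.369 log2 units and the median fall -0.315, while the median change over all genes was -0.00492. In 832 of the 848 genes that rose, the lowest array of 360 min lay above the highest of 240 min. The calls rest on these same arrays, so this order follows largely from the call and is no further support for it. The same order was seen in 12% of all genes, and the reverse order in 9.84%.

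The gene with the largest rise among those named was Cdc6, which loads the replicative helicase at origins. It read 5.63, 5.88 and 4.69 in replicates 1 to 3 of 240 min and 7.11, 7.21 and 7.16 at 360 min. This gene was picked among those whose groups do not overlap, and replicate 3 of 240 min was the lowest array. The rise was 1.76 ± 0.30 log2 units (SE of the model, 3 arrays a group; adjusted p = 0.00201 by limma), or 3.39-fold, and 1.41 without replicate 3 (adjusted p = 0.0182). Chaf1b and Chaf1a encode subunits of CAF-1, the chaperone that places new histones H3 and H4 on replicated DNA. Chaf1b went from 5.74, 6.15 and 5.12 to 7.29, 7.20 and 7.03, a rise of 1.50 ± 0.25, and Chaf1a rose by 1.18 ± 0.16. Brca1, a protein of homologous recombination, read 4.96, 5.05 and 4.47 at 240 min and 6.06, 6.17 and 6.51 at 360 min, a rise of 1.42 ± 0.18. Its adjusted p was 0.000287 with all arrays and 0.00285 without replicate 3.

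The other large rises were those of Idi1, Dtl, Mcm6, Exo1, Sipa1 and Uhrf1. Idi1 makes a building block of sterols and rose by 1.37. Dtl, the substrate receptor of a ubiquitin ligase that acts in S phase, rose by 1.29, Mcm6 of the replicative helicase by 1.26 and the DNA exonuclease gene Exo1 by 1.25. Sipa1, which inactivates the small GTPase Rap1, rose by 1.22, and Uhrf1, which guides DNA methylation after replication, by 1.17. With replicate 3 of 240 min left out, the limma adjusted p was 0.0718 for Dtl, 0.0818 for Mcm6 and 0.0616 for Uhrf1, so these 3 no longer passed, at changes of 0.99, 0.91 and 0.97. The other 7 of the 10 largest rises still passed.

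The gene with the largest fall was H1f2, which encodes a linker histone. It read 6.72, 7.06 and 7.53 at 240 min and 5.82, 5.46 and 5.98 at 360 min. It was likewise picked among genes whose groups do not overlap. H1f2 fell by 1.35 on the log2 scale (SE 0.27, limma adjusted p = 0.00546), and without replicate 3 its adjusted p was 0.0544 at a change of -1.14. Eda2r, a receptor of the tumour necrosis factor family and a p53 target, went from 8.79, 8.55 and 9.34 to 7.32, 7.58 and 8.18. It fell by 1.20 (SE 0.21, adjusted p = 0.00252), and by 0.98 without replicate 3 (adjusted p = 0.0267). Cd80, a costimulatory surface protein, read 5.77, 5.66 and 6.24 at 240 min and 4.69, 4.85 and 5.14 at 360 min. Tomm5 of the mitochondrial import pore changed by -0.81 and Rin1, a Ras effector, by -0.79. The stress protein gene Nupr1 changed by -0.77, the TEAD cofactor Vgll3 by -0.75, the death receptor Fas by -0.67, the mitochondrial peptidase Immp1l by -0.66 and the prefoldin subunit Pfdn6 by -0.66. All 10 passed with all arrays, and Eda2r, Rin1, Nupr1, Vgll3 and Pfdn6 passed without replicate 3. Cd80, Tomm5, Fas and Immp1l did not, with adjusted p of 0.156, 0.114, 0.313 and 0.151, and Tomm5 was then at -0.53. Nupr1 and Pfdn6 were then at -0.48 and -0.42.

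**Figure D1:**
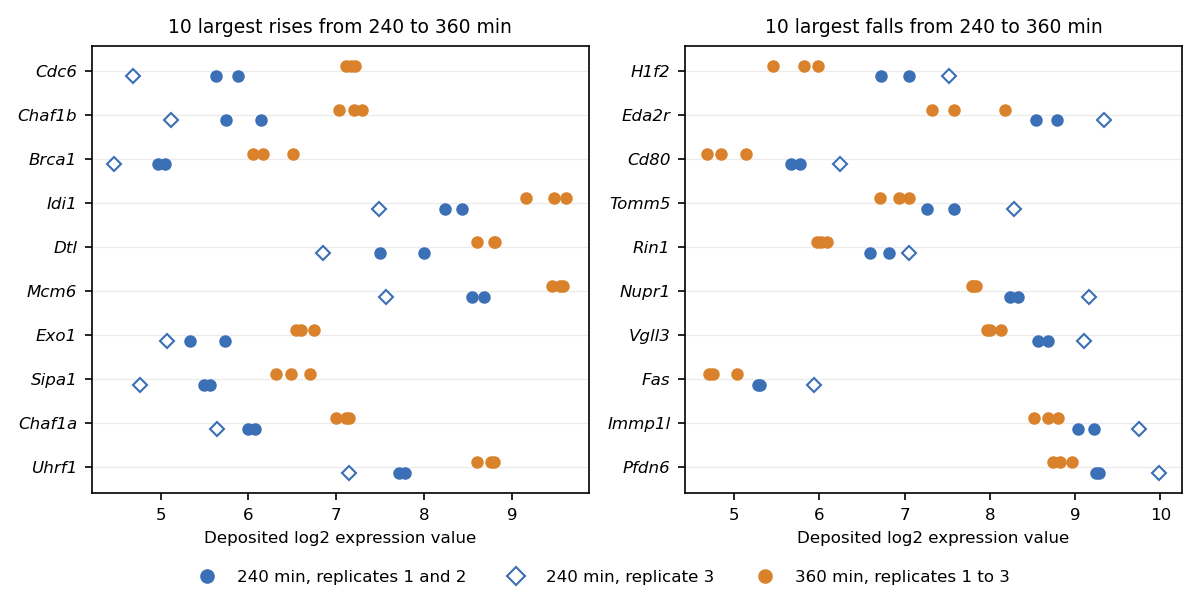
Deposited log2 values of the 10 genes with the largest rises (left) and the 10 with the largest falls (right) among called genes whose arrays do not overlap. Each point is 1 array, blue for 240 min and orange for 360 min; the open diamond is replicate 3 of 240 min, which lies farthest from the 360 min arrays in all 20 genes.

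Origin licensing and firing genes rose as a group. Of 25 measured, 18 rose and none fell, with a median change of 0.563 log2 units. Without replicate 3 of 240 min 9 rose, at a median of 0.467, and 16 with replicate 3 of 120 min left out as well. With the replicate block 17 rose. Besides Cdc6, the helicase subunits Cdc45 and Gins1 were among the 18. Gins1 read 5.47, 5.49 and 5.58 at 240 min and 6.80, 6.63 and 6.26 at 360 min. Here replicate 3 of 240 min lay with its group, and the rise was 1.05 ± 0.15 with all arrays and 1.09 without that one (limma adjusted p = 0.000544 and 0.00322). Cdc45 rose by 1.03 ± 0.14, and Mcm10, which activates the loaded helicase, by 0.88 ± 0.13. Ticrr, which brings initiation factors to the origin, rose by 0.55 ± 0.09. All 4 of these genes passed without replicate 3 as well.

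All 6 genes of the MCM2-7 helicase, the ring that unwinds DNA at the fork, rose. Mcm6 went from 8.55, 8.69 and 7.57 to 9.58, 9.46 and 9.55, and replicate 3 of 240 min lay about a log2 unit below its fellow replicates. Mcm2 went from 8.27, 8.15 and 7.83 to 8.74, 8.74 and 8.93, a rise of 0.72 ± 0.12 (limma adjusted p = 0.00145). Mcm7 went from 8.01, 8.01 and 7.76 to 8.79, 8.70 and 8.82, a rise of 0.85 ± 0.16 (adjusted p = 0.00396). In none of the 6 genes did the groups overlap. Mcm3, Mcm4 and Mcm5 rose by 0.86, 0.94 and 0.89. Without replicate 3 the median of the 6 fell from 0.878 to 0.734, and Mcm2, Mcm3, Mcm5 and Mcm7 still passed; Mcm4 and Mcm6 had adjusted p of 0.0751 and 0.0818.

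The promoters of Dtl, Mcm5 and Mcm6 show the E2F motif that recurs in genes of this kind. The letters searched were TTTCGCGC and TTTGGCGC on either strand. They can overlap, since TTTCGCGCCAAA holds the first on one strand and the second on the other. The windows are the 250 bases before the start site, from RefSeq on build GRCm38.p6, written 5′ to 3′ on the strand of the gene with the motif in capitals. That of Dtl is chr1:191575545-191575794 on the minus strand, that of Mcm5 chr8:75109259-75109508 on the plus strand and that of Mcm6 chr1:128359706-128359955 on the minus strand.
Dtl: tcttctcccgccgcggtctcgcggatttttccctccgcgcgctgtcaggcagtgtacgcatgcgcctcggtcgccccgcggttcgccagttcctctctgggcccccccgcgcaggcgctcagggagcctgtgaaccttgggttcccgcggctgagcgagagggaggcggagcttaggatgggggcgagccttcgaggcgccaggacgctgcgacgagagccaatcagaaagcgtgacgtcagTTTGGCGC
Mcm5: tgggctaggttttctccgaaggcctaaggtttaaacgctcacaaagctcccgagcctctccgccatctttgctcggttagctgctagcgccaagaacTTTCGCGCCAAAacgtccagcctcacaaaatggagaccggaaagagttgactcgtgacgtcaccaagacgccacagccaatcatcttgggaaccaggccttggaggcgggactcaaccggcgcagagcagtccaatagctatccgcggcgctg
Mcm6: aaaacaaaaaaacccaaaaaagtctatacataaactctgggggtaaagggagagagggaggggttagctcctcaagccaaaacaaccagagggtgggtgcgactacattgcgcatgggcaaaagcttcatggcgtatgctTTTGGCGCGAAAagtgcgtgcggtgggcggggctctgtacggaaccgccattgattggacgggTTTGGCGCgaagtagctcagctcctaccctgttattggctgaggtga
In Dtl the motif ends at the last base before the start site. In Mcm5 an overlapping pair begins 153 bases before it, and Mcm6 holds such a pair in the other orientation and a further copy that begins 47 bases before the start.

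Across the genes tested, 15614 had such a window and 1.07% of these genes held the E2F letters. The windows numbered 19177, so some genes had more than 1. Among genes that rose the share was 4.22%, 29 of 687, and among those that fell 0.346%, 1 of 289. In the lists of origin, helicase, fork and histone chaperone genes together it was 14.9%, 10 of 67. Cdc6, Mcm2 and Mcm3 had a window without these letters. These shares describe letters in a short window and are given with no test.

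Genes of the replication fork rose to a like extent: 25 of 34 measured rose and none fell, with a median of 0.505. Without replicate 3 of 240 min 10 rose, at a median of 0.425, and 21 with replicate 3 of 120 min left out as well. The replicate block gave 19. Pole, the catalytic subunit of the leading strand polymerase, read 5.86, 6.29 and 5.57 at 240 min and 6.84, 6.79 and 6.97 at 360 min. It rose by 0.96 ± 0.13 (limma adjusted p = 0.000399). Clspn, the adaptor claspin of the replication checkpoint, rose by 1.10 ± 0.17, the primase subunit Prim2 by 0.51 ± 0.08 and the clamp loader subunit Chtf18 by 0.57 ± 0.09. All 4 passed without replicate 3.

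Of 14 enzymes of deoxynucleotide supply, 4 rose, and the same 4 passed without replicate 3 of 240 min. Tk1, the thymidine kinase of S phase, went from 5.80, 5.93 and 6.03 to 6.62, 6.88 and 6.89. In this gene replicate 3 was the highest array of 240 min, and the rise was 0.87 ± 0.14 with it and 0.93 without it. Rrm2, the regulated subunit of ribonucleotide reductase, rose by 0.79, deoxycytidine kinase (Dck) by 0.64 and Samhd1, which degrades deoxynucleotides, by 0.37. In de novo synthesis of purines and pyrimidines 4 of 16 genes rose, Gmps, Umps, Ppat and Ctps2, by 0.43, 0.38, 0.33 and 0.30, and the median of that list was 0.014. Without replicate 3, Ctps2 had a limma adjusted p of 0.0911.

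Recombination, Fanconi and checkpoint genes rose in 17 of 36 cases, and in 8 without replicate 3. Chek1, the checkpoint kinase of S phase, went from 6.94, 7.04 and 6.68 to 7.89, 7.83 and 8.02, a rise of 1.03 ± 0.14 (limma adjusted p = 0.000512). Brip1, a helicase that works with Brca1, rose by 0.88 ± 0.13. Among histone chaperones and factors of histone mRNA, 9 of 15 rose, at a median of 0.511, and 5 without replicate 3. With the replicate block 7 rose. Besides both CAF-1 genes the 9 included Dnmt1, the methyltransferase that copies DNA methylation, at 0.71 ± 0.10, and the chromatin remodeller Hells at 1.09 ± 0.20. The histones measured did not rise as a group in this interval. Of 66 linker and core histone genes listed, 25 had a probe set of their own, with a median change of -0.00756. Only 7 of the 25 had a mean log2 level of at least 6, so most of the list read low. H1f2 was the 1 gene of the 25 that passed, and as given above it did not pass without replicate 3. From 360 to 480 min 2 of the 25 rose, at a median of 0.112, when 0.291% of all genes did. H1f5, another linker histone gene, read 6.98, 7.25 and 7.25 at 240 min and 7.42, 7.44 and 7.61 at 360 min, a change of 0.33 with an adjusted p of 0.0992.

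The list of G1 cyclins, kinases and members of the E2F and Rb families holds 25 regulators of the G1 to S transition. Of these 9 rose and 1 fell, at a median of 0.269, and 3 rose without replicate 3 of 240 min. Leaving out replicate 3 of 120 min too gave 9 up and 1 down. Rbl1, the pocket protein p107, rose by 0.64 ± 0.11, the E2F partner Tfdp1 by 0.33 ± 0.06 and Skp2, which targets the inhibitor p27 for degradation, by 0.62 ± 0.12. The gene that fell was Ccnd1, cyclin D1, which read 10.12, 10.04 and 10.21 at 240 min and 9.67, 9.74 and 9.73 at 360 min. It fell by 0.41 (SE 0.09, limma adjusted p = 0.00832), and without replicate 3 the change was -0.36 with an adjusted p of 0.0677. Among 7 cyclin-dependent kinase inhibitors 0 passed in limma, and 1 had an unadjusted p under 0.05. Cdkn1b, which encodes p27, changed by 0.37 with a limma adjusted p of 0.0875. Without replicate 3 of 240 min its change was 0.21 with an adjusted p of 0.514.

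In the list of G2 and mitosis, 25 of 54 genes rose and none fell, with a median of 0.323. Without replicate 3 of 240 min 5 rose, at a median of 0.302, and 15 with replicate 3 of 120 min left out as well. The replicate block gave 19. Top2a, the topoisomerase that untangles sister chromatids, went from 8.63, 8.73 and 8.53 to 9.07, 9.26 and 9.19. The groups did not overlap, and the rise was 0.54 ± 0.09 (limma adjusted p = 0.00144). Nek2, a centrosome kinase, rose by 0.72 and the mitotic kinesins Kif20b and Kif23 by 0.69 and 0.37. Without replicate 3, Kif23 had an adjusted p of 0.0513 at 0.32. In 50 of the 54 genes the change was above 0. The exceptions were Ccnb2, Ube2c, Pttg1 and Cenpa, at -0.11, -0.02, -0.01 and -0.03, none of which passed. Ccna2, the cyclin of S and G2, rose by 0.47, and by 0.35 without replicate 3, with a limma adjusted p of 0.0806; these 5 were named after their values were seen.

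**Figure D2:**
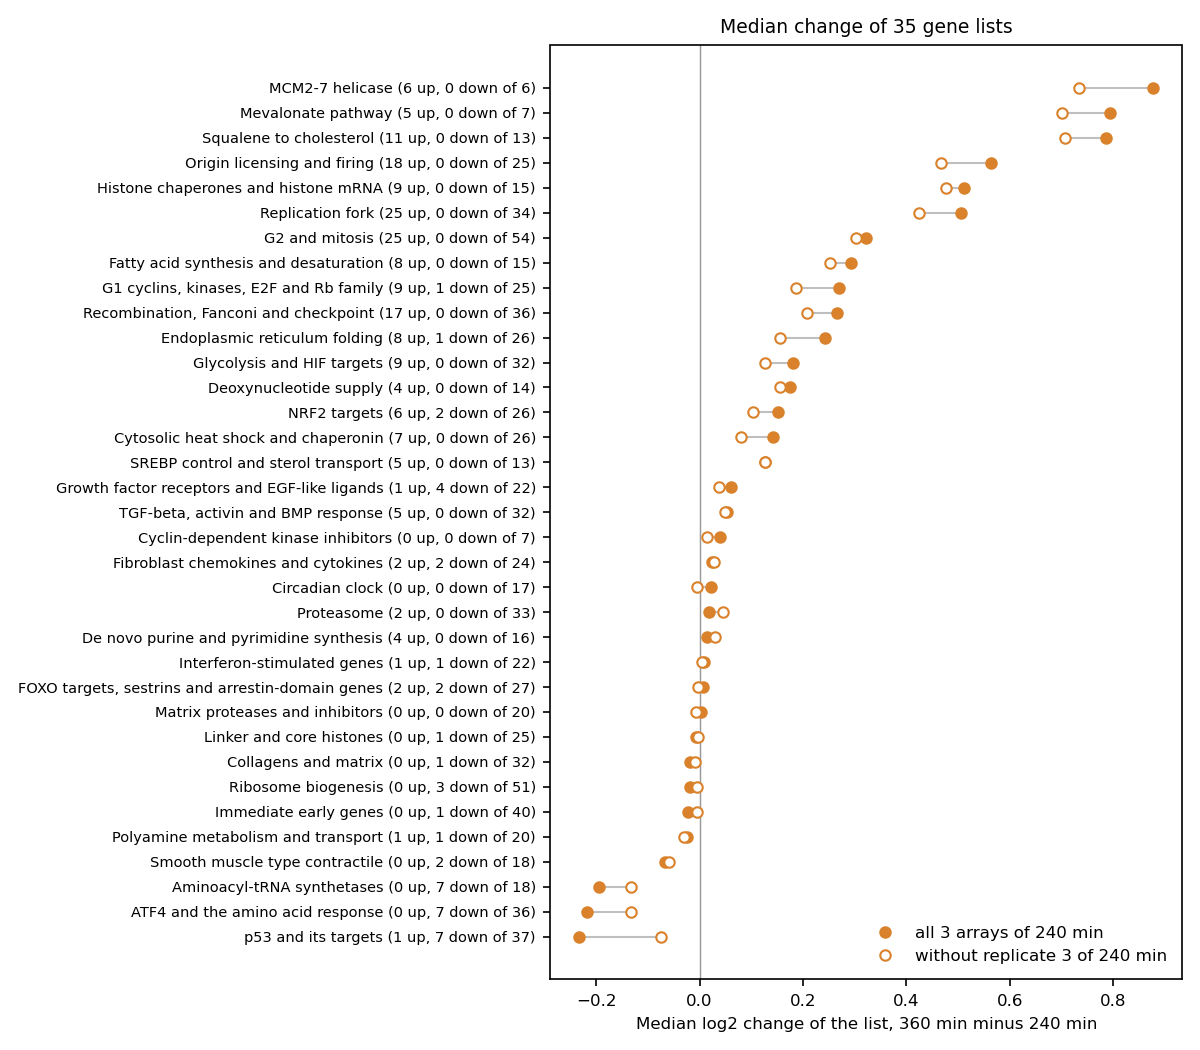
Median log2 change from 240 to 360 min of 35 gene lists, with all arrays (filled) and without replicate 3 of 240 min (open); the labels give how many measured members rose and fell in the limma fit with all arrays. The MCM2-7 helicase and both parts of cholesterol synthesis lie above 0.7 in both versions, and p53 targets, the amino acid response and the aminoacyl-tRNA synthetases lie lowest.

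Of the 8 genes with the smallest p-values 6 were enzymes of cholesterol synthesis, whose 2 lists hold 20 of the 19938 genes. The cut at 8 was not set beforehand. These enzymes rose together. In the mevalonate pathway, which makes isoprenoid units from acetyl-CoA, 5 of 7 measured genes rose and 4 without replicate 3, at medians of 0.794 and 0.702. On the branch from squalene to cholesterol 11 of 13 rose and 9 without replicate 3, at medians of 0.787 and 0.708. Fdps, which makes farnesyl diphosphate, went from 7.33, 7.03 and 6.90 to 7.95, 7.96 and 8.29, a rise of 0.98 ± 0.10 or 1.97-fold (limma adjusted p = 3.6e-05). Hmgcs1, an early enzyme of the pathway, went from 9.35, 9.02 and 8.47 to 9.99, 10.18 and 10.17, a rise of 1.17 ± 0.19. Mvk, mevalonate kinase, rose by 0.69 ± 0.09.

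Sc5d, which acts near the end of the pathway, had the lowest p of all genes. It read 8.89, 8.82 and 8.62 at 240 min and 9.42, 9.59 and 9.68 at 360 min, a rise of 0.79 ± 0.07 (limma adjusted p = 1.79e-05, and 0.000134 without replicate 3). Nsdhl, a sterol dehydrogenase, went from 6.95, 6.70 and 6.46 to 7.53, 7.73 and 7.86 and rose by 1.01 ± 0.11. The groups did not overlap in either gene. Hsd17b7, a sterol reductase, rose by 0.77 ± 0.08, and Fdft1, squalene synthase, by 1.01 ± 0.11. The 2 genes of the branch that did not pass were Dhcr7 at 0.37 and Ebp at 0.17, with adjusted p of 0.082 and 0.225.

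Of 13 genes of SREBP control and sterol transport, 5 rose. Insig1, which holds SREBP back in the endoplasmic reticulum and is itself an SREBP target, went from 10.21, 10.11 and 9.66 to 11.05, 11.09 and 11.12, a rise of 1.09 ± 0.17. Stard4, a cholesterol carrier, rose by 1.09 ± 0.17. These 2 also passed without replicate 3, and Srebf1, at 0.28, and the SREBP protease gene Mbtps1, at 0.24, did not. Of 15 genes of fatty acid synthesis and desaturation, 8 rose and 5 without replicate 3. Fasn, fatty acid synthase, went from 8.85, 8.95 and 8.70 to 9.53, 9.54 and 9.76, a rise of 0.77 ± 0.10 (limma adjusted p = 0.000385). Acly, which supplies acetyl-CoA, rose by 0.54 ± 0.08, the elongase gene Elovl6 by 0.54 ± 0.09 and the desaturase gene Scd2 by 0.98 ± 0.16.

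The promoters of Hmgcs1 and Lss, the latter encoding lanosterol synthase, show the elements for which sterol genes are known. The letters searched were TCACCCCAC, a sterol regulatory element, and CCAAT, the box bound by NF-Y, on either strand. The windows, from the same source and build, are chr13:119690101-119690350 for Hmgcs1 and chr10:76531355-76531604 for Lss, both on the plus strand, with these letters in capitals.
Hmgcs1: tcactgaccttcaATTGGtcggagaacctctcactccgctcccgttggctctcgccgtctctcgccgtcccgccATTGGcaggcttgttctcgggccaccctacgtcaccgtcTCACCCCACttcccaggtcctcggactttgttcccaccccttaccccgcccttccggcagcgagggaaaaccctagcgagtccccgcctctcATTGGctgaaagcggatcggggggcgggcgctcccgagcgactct
Lss: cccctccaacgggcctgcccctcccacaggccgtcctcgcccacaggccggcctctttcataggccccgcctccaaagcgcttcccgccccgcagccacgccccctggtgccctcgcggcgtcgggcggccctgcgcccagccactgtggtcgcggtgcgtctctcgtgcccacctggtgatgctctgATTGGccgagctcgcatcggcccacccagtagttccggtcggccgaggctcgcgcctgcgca
Hmgcs1 holds the sterol element, which begins 137 bases before the start site, and 3 CCAAT boxes, written ATTGG on this strand. Lss holds 1 CCAAT box. Of the 17 sterol synthesis genes with a window, 16 held a CCAAT box, 94.1% against 38.8% of all genes with a window. The sterol element was in 1 of the 17, 5.88% against 0.589%. Of genes of G2 and mitosis with a window, 71.1% held CCAAT and 40%, 18 of 45, the cell cycle element TTTGAA, the latter against 15.7% of all. Short motifs such as CCAAT match often, and a match is not a bound site.

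Targets of p53, the amino acid response and aminoacyl-tRNA synthetases had the lowest medians. Of 37 genes of the p53 list 7 fell and 1 rose, at a median of -0.233, and 5 fell and 1 rose with the replicate block. With replicate 3 of 240 min left out 2 fell, Eda2r and Aen, and the median was -0.0752, so the size of this shift rests on that array. Aen, a p53-induced nuclease, went from 7.67, 7.39 and 7.91 to 7.02, 7.05 and 7.14 and fell by 0.59 (SE 0.11, limma adjusted p = 0.00412). Ercc5, a repair endonuclease, fell by 0.49 with all arrays and had an adjusted p of 0.0552 without replicate 3. The member that rose was Sesn1, a stress-induced inhibitor of the growth regulator mTORC1, which went from 8.20, 7.87 and 7.09 to 8.62, 8.86 and 8.65. Its rise was 0.99 ± 0.21 with all arrays and 0.68 without replicate 3, with an adjusted p of 0.0646.

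In the list for the transcription factor ATF4 and amino acid shortage, 7 of 36 genes fell and none rose, at a median of -0.217, and 3 fell without replicate 3 at a median of -0.133. With the replicate block 4 fell. Those that fell without replicate 3 were Nupr1, Atf5 and Eif4ebp1. Atf5, a stress transcription factor, went from 8.98, 8.83 and 9.23 to 8.40, 8.50 and 8.53, a change of -0.53, and Eif4ebp1, an inhibitor of translation initiation, changed by -0.36. Slc7a5, a carrier of large neutral amino acids, fell by 0.40 with all arrays and had an adjusted p of 0.174 without replicate 3. Among 18 aminoacyl-tRNA synthetases, which charge tRNAs, 7 fell, at a median of -0.195, and 5 fell with the replicate block. Cars, for cysteine, went from 8.81, 8.77 and 9.21 to 8.27, 8.41 and 8.23, a change of -0.63 (SE 0.11, limma adjusted p = 0.00199), and it alone passed without replicate 3. Iars, Yars and Tars changed by -0.41, -0.49 and -0.33, and by -0.35, -0.42 and -0.21 without replicate 3. Of 51 genes of ribosome biogenesis 3 fell, Rrp12, Noc3l and Nob1, at -0.54, -0.28 and -0.24, and the median of the list was -0.0186. Rrp12 alone passed without replicate 3; Noc3l and Nob1 were then at -0.17 and -0.16, with limma adjusted p of 0.256 and 0.267. With the replicate block 1 of the 51 fell.

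Genes of protein folding, the oxidant response and sugar use gave counts that changed with which stand-apart arrays were left out. In the endoplasmic reticulum list 8 of 26 rose and 1 fell; without replicate 3 of 240 min 1 rose, Creld2, at 0.53 against 0.71 with all arrays. The gene that fell was Atf6, a sensor of unfolded protein, at -0.40, and its limma adjusted p was 0.0644 without replicate 3. Cytosolic heat shock and chaperonin genes rose in 7 of 26 cases with all arrays. With that array left out 0 of the 26 passed in limma and 8 had an unadjusted p under 0.05, and the median went from 0.142 to 0.0809. Hspa4l, an example, read 9.69, 9.47 and 8.80 at 240 min and 10.02, 10.03 and 10.11 at 360 min, a change of 0.74, and of 0.48 without replicate 3. Of 26 NRF2 targets 6 rose and 2 fell, and 1 rose and 1 fell without replicate 3. Leaving out replicate 3 of 120 min too again gave 6 up and 2 down, and the median was 0.104 in both of these versions. Nqo1, a quinone reductase, read 7.74, 7.78 and 6.61 against 8.46, 8.32 and 8.44, a rise of 1.03 that became 0.65 without replicate 3 (limma adjusted p = 0.167). Sqstm1, the autophagy adaptor p62, fell by 0.35, and by 0.30 without replicate 3 (adjusted p = 0.0076). Glycolysis and HIF targets rose in 9 of 32 cases and in 2 without replicate 3, Pfkl and Pdk1, which were at 0.99 and 0.70 with all arrays. With the replicate block, 2 of the endoplasmic reticulum list rose, 2 of the heat shock list, 3 NRF2 targets and 4 genes of glycolysis and HIF.

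In the remaining lists few of the calls held without replicate 3 of 240 min. In the list of 20 genes of polyamine metabolism and transport, Sat1 rose by 0.27 and Azin2 fell by 0.43. Sat1 encodes the acetyltransferase that starts polyamine breakdown, and Azin2 an antizyme inhibitor. Neither passed without replicate 3, with limma adjusted p of 0.159 and 0.0965. Leaving out replicate 3 of 120 min too, 2 of the list rose and 1 fell. Of 40 immediate early genes Srf alone passed, at -0.59 with an adjusted p of 0.048, and without replicate 3 it was at -0.38 with an adjusted p of 0.333. Of 32 genes of the TGF-beta, activin and BMP response 5 rose, and 1 without replicate 3. That gene was Tgfbi, an extracellular matrix protein gene induced by TGF-beta. It went from 6.34, 6.70 and 6.35 to 7.54, 7.20 and 7.40, a rise of 0.92 ± 0.18. Of 24 fibroblast chemokines and cytokines 2 rose and 2 fell, and none passed without replicate 3. Among 22 growth factor receptors and ligands 4 fell, among them Pdgfa at -0.33, Pdgfc at -0.25 and Nrg1 at -0.35, and Pdgfra rose by 0.79. Without replicate 3 none of these 4 named genes passed, and 1 of the list fell with the replicate block. Of 17 circadian clock genes and 20 matrix proteases and inhibitors 0 passed in limma, and 2 and 3 had an unadjusted p under 0.05. The median changes were 0.0212 and 0.00198, and without replicate 3 of 240 min -0.00489 and -0.00598. Collagens and matrix genes had a median change of -0.0177, and Col8a1 alone fell, at -0.34, with a limma adjusted p of 0.226 without replicate 3.

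**Figure D3:**
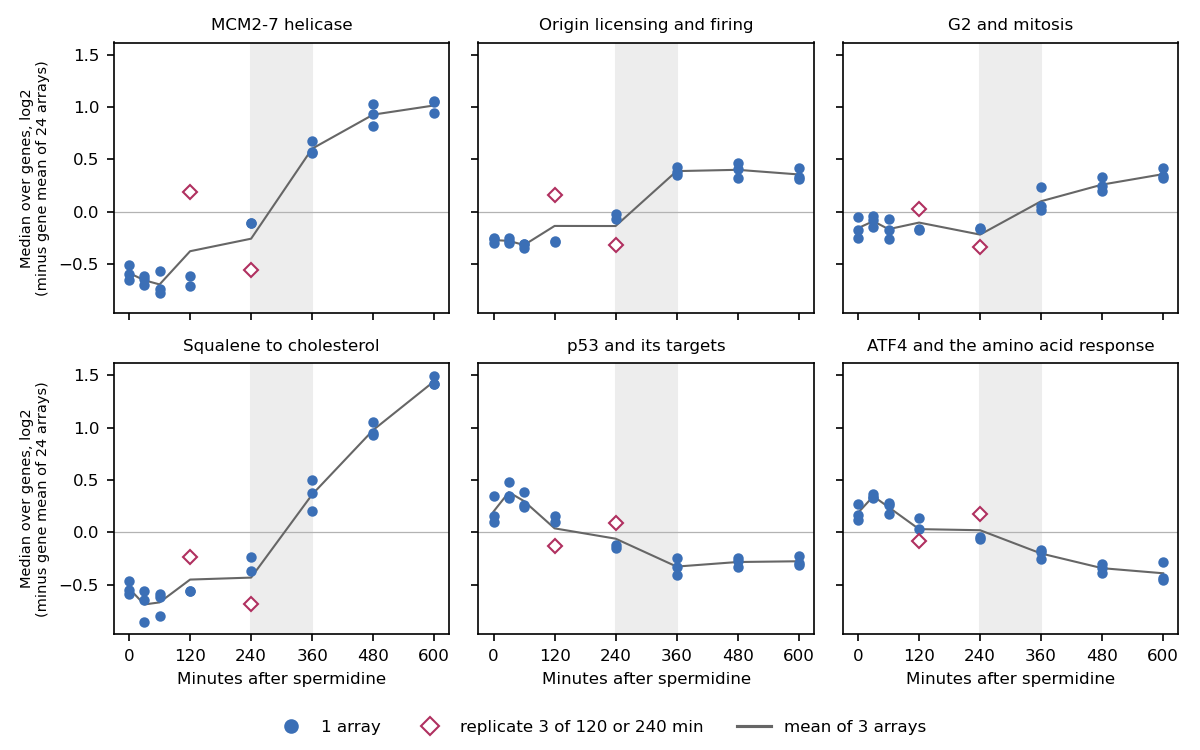
Median over the genes of 6 lists in each of the 24 arrays, as log2 deviation from each gene's mean over all arrays, against minutes after spermidine; points are arrays, open diamonds replicate 3 of 120 and of 240 min, lines the mean of 3 arrays and the grey band the interval from 240 to 360 min. For the MCM2-7 helicase the 240 min arrays lie at -0.11, -0.11 and -0.56 and the 360 min arrays at 0.57, 0.56 and 0.67.

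The interval was then set beside its neighbours, which share its arrays. With all arrays, 0 genes of 19938 (0%) passed in limma from 120 to 240 min and 1879 had an unadjusted p under 0.05. The MCM2-7 median was 0.119 in that interval against 0.878 from 240 to 360 min, that of the origin list -0.0106 against 0.563, that of G2 and mitosis -0.109 against 0.323 and that of the squalene to cholesterol list 0.096 against 0.787. Without replicate 3 of 120 and of 240 min, which stood apart in opposite directions, the median of the MCM2-7 genes changed by 0.558 from 120 to 240 min and by 0.734 from 240 to 360 min, and with all arrays by 0.307 from 360 to 480 min. All 6 rose in each of the first 2 of these intervals, where 1.13% and 2.28% of all genes rose. In the last, 0 passed in limma and 1 had an unadjusted p under 0.05. The origin list changed by 0.245, 0.467 and 0.0264, and that of G2 and mitosis by 0.00714, 0.302 and 0.16. In the squalene to cholesterol list the medians were 0.26, 0.708 and 0.618, and 11 of its 13 genes rose from 360 to 480 min, when 0.291% of all genes did. The mevalonate median was 0.736 from 360 to 480 min. From 240 to 360 min it was 0.794 with all arrays and 0.702 without these 2. That of fatty acid synthesis was larger from 360 to 480 min, at 0.375, than from 240 to 360 min, at 0.293 and 0.253. For the p53 list the order of the intervals turned with these 2 arrays. With all arrays its medians were -0.108 from 120 to 240 min, where 0 genes passed and 4 had an unadjusted p under 0.05, and -0.233 from 240 to 360 min, where 7 fell. Without them they were -0.27, with 13 genes falling where 1.5% of all genes fell, and -0.0752, with 4 falling. From 360 to 480 min the median was 0.0671. Over all genes the medians were 0.00598 from 120 to 240 min with all arrays, 0.00488 without these 2, and -0.00414 from 360 to 480 min.

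A test of the difference between intervals named few genes. The change from 240 to 360 min differed from that of the next interval in 2 genes of 19938 (0.01%) and from that of the previous interval in 5 (0.0251%), at a limma adjusted p under 0.05. The first count was 0 without replicate 3 of 240 min, with 1283 genes at an unadjusted p under 0.05, and the second was 1 (0.00502%) without replicate 3 of 120 and 240 min. For Cdc6 the change from 360 to 480 min was -0.66, and the difference of 2.43 ± 0.52 between the intervals had an adjusted p of 0.216. For Mcm6 the difference from the next interval was 0.96 ± 0.47, with an adjusted p of 0.583. No gene of replication passed either test, so the larger rise of this group from 240 to 360 min is a description of its medians. The sole gene of a list that passed was Sc5d, against the previous interval, where the difference was 0.74 with all arrays and 0.53 without replicate 3 of 120 and 240 min (adjusted p = 0.0399 and 0.299).

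**Figure D4:**
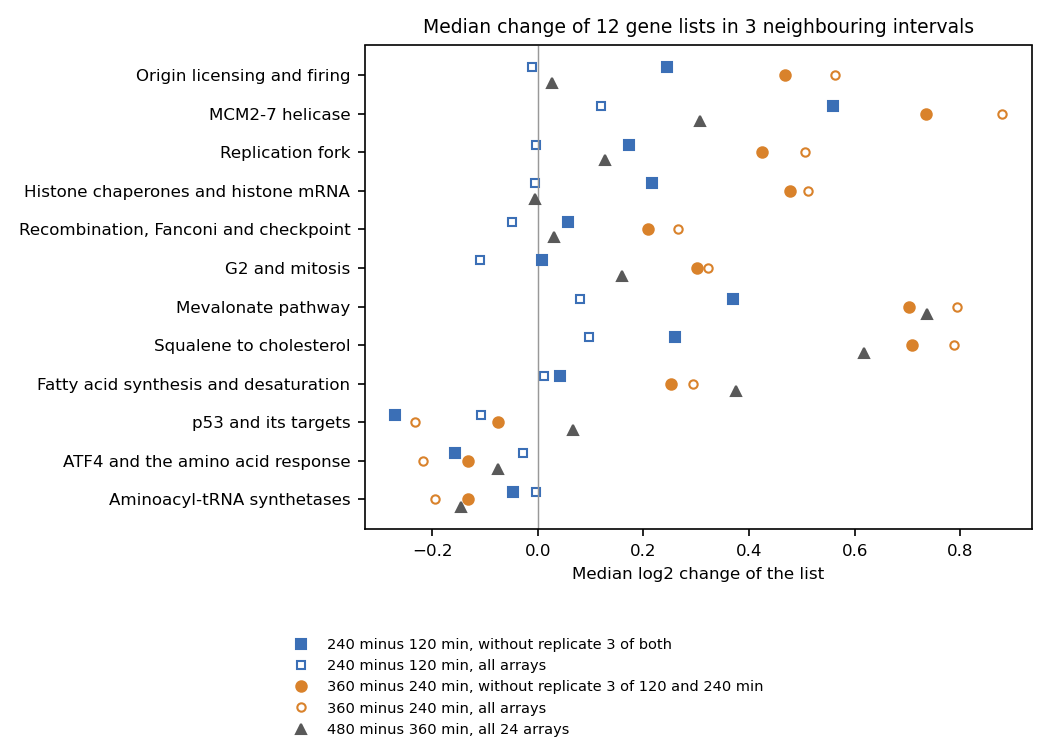
Median log2 change of 12 gene lists in 3 neighbouring intervals that share arrays; for the first 2 intervals filled symbols leave out replicate 3 of 120 and of 240 min and open symbols hold all arrays. Replication lists have their largest median from 240 to 360 min in both versions. Both sterol lists have medians above 0.6 in the next interval. For the mevalonate list that median is above the one from 240 to 360 min without these arrays. The p53 list has its lowest median from 120 to 240 min without these arrays and from 240 to 360 min with them.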

How the data were processed

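RNA of 24 NIH3T3 samples, 3 at each of 8 time points, was measured on Affymetrix mouse gene arrays. Per the submitters' processing notes, the authors used Partek and robust multi-array averaging (RMA); no version is given. The deposited values are taken as log2, from their range and array medians of 4.4 to 4.447, and were not transformed. Averaged over the time course, the replicates 1, 2 and 3 of a gene differ by at most 8.75e-05, so a replicate effect was taken out before deposit by a step that these sources do not name.

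The platform annotation gave 1 symbol to 21789 of 35399 probe sets, several to 1621 and none to 11989. The brightest probe set on average stood for each of 19938 genes. Against RefSeq (GRCm38.p6), 91 symbols had no match and were kept.

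Time point means were estimated from all arrays at once in limma 3.58.1 (R 4.3.3, with the data.table package at 1.17.8; 16 residual and 3.48 prior degrees of freedom) with moderated two-sided tests. Benjamini-Hochberg adjustment ran over all genes, with calls under 0.05. The fit was run on simulated data with independent noise and no replicate effect taken out. That run cannot show what the removal before deposit does to the SE and p-values. Figures and motif counts used pandas 2.3.3 and matplotlib 3.10.9 in Python 3.11.15. Without replicate 3 of 240 min, 2 arrays stood for that time. Precision is limited by how many arrays a time has; the median SE was 0.0567. No 2 arrays were identical. Removing the replicate effect fixed each replicate's mean over time, so deviations in these values cannot show whether the numbers pair the arrays. A fit with the replicate block has 14 residual degrees of freedom and a median SE of 0.0605, and allows for that removal. The main fit, with 16, does not, so its SE and p-values are too small.

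Named genes were the 10 largest rises and falls among called genes whose arrays do not overlap, all MCM2-7 genes, up to 4 genes per list by p, members called against their list's direction, and up to 3 genes in each direction of an interval difference. Members, the 41 gene lists and these rules were chosen with earlier results of these data known; some lists share genes. Alternatives were each array of the times compared left out, the replicate block, the 6 arrays alone and a filter at a mean of 6. Others were quantile normalization, median centring, other probe set choices, a variance trend and array weights.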

Additional observations from a re-analysis of the deposited data

Results flagged for a closer look

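In 6 genes the change from 240 to 360 min differed from the change in a neighbouring interval by a test of the difference itself in limma, adjusted over all genes. These intervals share arrays. Gpr63, an orphan receptor gene, rose from 4.48, 4.45 and 4.46 to 4.82, 4.79 and 4.81 at 360 min, and its arrays at 480 min read 4.55, 4.51 and 4.61. Its change exceeded that of the next interval by 0.587 log2 units (adjusted p = 0.0253, and 0.0734 without replicate 3 of 240 min). Its levels lay close to the median gene of an array.

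Nudt11, a diphosphoinositol phosphatase gene, differed from both neighbours, by -0.382 from the next interval (adjusted p = 0.0253, and 0.0502 without replicate 3 of 240 min) and by -0.46 from the previous one (adjusted p = 0.00185). Its arrays read 3.85, 3.79 and 3.81 at 120 min. They read 4.03, 4.04 and 4.00 at 240 min, the highest of these times, then 3.76, 3.81 and 3.76 at 360 min. Without replicate 3 of 120 and 240 min the second difference was -0.48 with an adjusted p of 0.0391. All of these levels lie below the median gene.

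The other 4 genes differed from the previous interval. Sc5d differed by 0.742 and Tlcd1 by 0.758, both with an adjusted p of 0.0399, and Pxk by 0.555, with the same adjusted p. Tmem159 differed by -0.578 (adjusted p = 0.0369). The arrays of Tlcd1 went from 6.53, 6.65 and 6.40 at 240 min to 7.26, 7.18 and 7.27 at 360 min, and then to 7.69, 7.67 and 7.71. Without replicate 3 of 120 and 240 min none of these 4 passed, with adjusted p of 0.299 for Sc5d, 0.337 for Tlcd1 and 0.268 for Pxk and Tmem159. Groups of 3 arrays are too small for the search for outlying samples.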

How the results depend on the processing

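Leaving out each of the 6 arrays of 240 and 360 min in turn gave 280 to 1422 genes against 1207. The count was 280 without replicate 3 of 240 min, 712 without replicate 2 of 360 min and 489 without replicate 3 of 360 min. With the replicate block 776 were called, all among the 1207; with the 6 arrays alone 177; without replicate 3 of 120 and 240 min 603, and 412 with the replicate block as well, an alternative chosen after seeing the data. The other settings gave 1007 to 1349, and quantile normalization 826 up and 473 down. The 1349 were called among the 6835 genes with a mean of at least 6, a smaller set than in the main fit. Using every probe set with 1 symbol gave 1254 probe sets rather than genes. Without replicate 3 of 240 min the 280 became 105 with the replicate block and 30 to 208 when a further array was left out. The difference from the next interval gave 2 genes, 0 with the replicate block and 0 to 2 with an array left out, and 1344 genes at an unadjusted p under 0.05 with that block. The difference from the previous interval gave 5 genes, 1 with the replicate block, 1 without replicate 3 of both times, and 1 to 39 with an array left out, with 39 without replicate 2 of 240 min and 18 without replicate 1 of 120 min. Signs of named genes were checked with an array of 240 or 360 min left out, the replicate block, quantile normalization and median centring. No called change of a named gene turned its sign there, and the other settings were not checked for this. The medians of 3 of 35 lists turned theirs without replicate 3 of 240 min, all within 0.0212 of 0. Of 129 named genes called, 72 passed without replicate 3 of 240 min and 94 to 125 without another array of 240 or 360 min. With the replicate block 110 passed, after quantile normalization 127 and after median centring 128. The 6 arrays alone leave fewer samples to estimate the spread; the cause of the other changes was not tested. Whether the replicate numbers pair the arrays cannot be read from values with the replicate effect removed.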
